A study of Homo sapiens with 10 samples.

Results

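The 34 genes described here encode the glucose carriers, glycolytic enzymes, lactate enzymes and carriers, pentose phosphate enzymes and glycogen-branch enzymes of the cell, and were chosen by name from the 36498 genes of the deposited table, in which all 34 were found. Expression was measured by sequencing transcript 3' ends in AsPC-1, an established cell line from a human pancreatic ductal adenocarcinoma. Control cells were kept for 24 h in complete RPMI medium (5 libraries), and starved cells for 24 h in RPMI without glutamine with 10% dialysed serum (5 libraries). The line was otherwise grown in RPMI with 10% serum and 1 mM sodium pyruvate, and the labels name no genotype or drug. Nothing in the labels says whether replicates were separate cultures, so p-values measure the spread between these libraries, which may be technical.

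Glycolysis splits glucose into pyruvate in the cytosol and yields ATP. Lactate dehydrogenase then reduces pyruvate to lactate and returns NAD+ to the pathway, and monocarboxylate carriers take lactate out of the cell. The pentose phosphate pathway branches off after the first phosphorylation of glucose and makes NADPH in its oxidative arm and ribose phosphate, the sugar of nucleotides, in its non-oxidative arm. Pancreatic ductal tumours are known for high glucose use, and many of these genes are textbook targets of HIF-1 and MYC, which bind the letters ACGTG and CACGTG.

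The 7 abundantly counted glycolytic genes ALDOA, TPI1, GAPDH, PGK1, ENO1, PKM and LDHA were all lower in starved cells, and their summed level was 7763 ± 338 CPM in control and 3601 ± 231 CPM in starved libraries (mean ± SD, n = 5 per group; CPM, counts scaled to a sum of 1000000 per library). LDHA and TPI1 fell more than 4-fold, whereas ENO1 fell 1.34-fold. In the pentose phosphate pathway PGD, TKT, TALDO1 and RPIA fell. HK2, the inducible hexokinase, was the 1 member that rose, 3.42-fold. Of all tested genes 43.3% were called in either direction, and in 30.4% the groups did not overlap. Of the 34 members 29 had a mean of at least 5 CPM and were tested, 15 were called lower (51.7%, against 26.1% of all 11202 tested genes) and 1 was called higher (3.45%, against 17.2%), by limma on log2(CPM + 1) with a Benjamini-Hochberg adjusted p under 0.05 over all tested genes. The median log2 change was -0.72 over the 29 tested members and -0.22 over all tested genes, and 21 of the 29 lay below that median. Quantile normalization moved the median of all genes to -0.09 and median-of-ratios scaling to -0.14. With quantile normalization 15 members were called lower and 3 higher, beside 2527 lower and 2149 higher of all 11202 tested genes. Under median-of-ratios scaling 15 members were called lower and 1 higher, beside 2642 and 2120 of all 11202. With a filter at 20 CPM, which leaves more abundant genes, 2219 of 7005 tested genes were called lower and 1637 higher. Of the members, fewer than 29 were then tested, and 15 were called lower and 1 higher. These were not the same 15: PFKM, with a mean under 20 CPM, was no longer tested, and RPE was called lower. The members were chosen with earlier results of these data known. In 13 members every starved library lay below every control library (17.9% of all tested genes did so), and in 1 every starved library lay above (12.5%). Of the tested members 2, GPI and SLC16A3, reached the mean of 5 CPM only through the group in which they were higher.

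**Figure D1:**
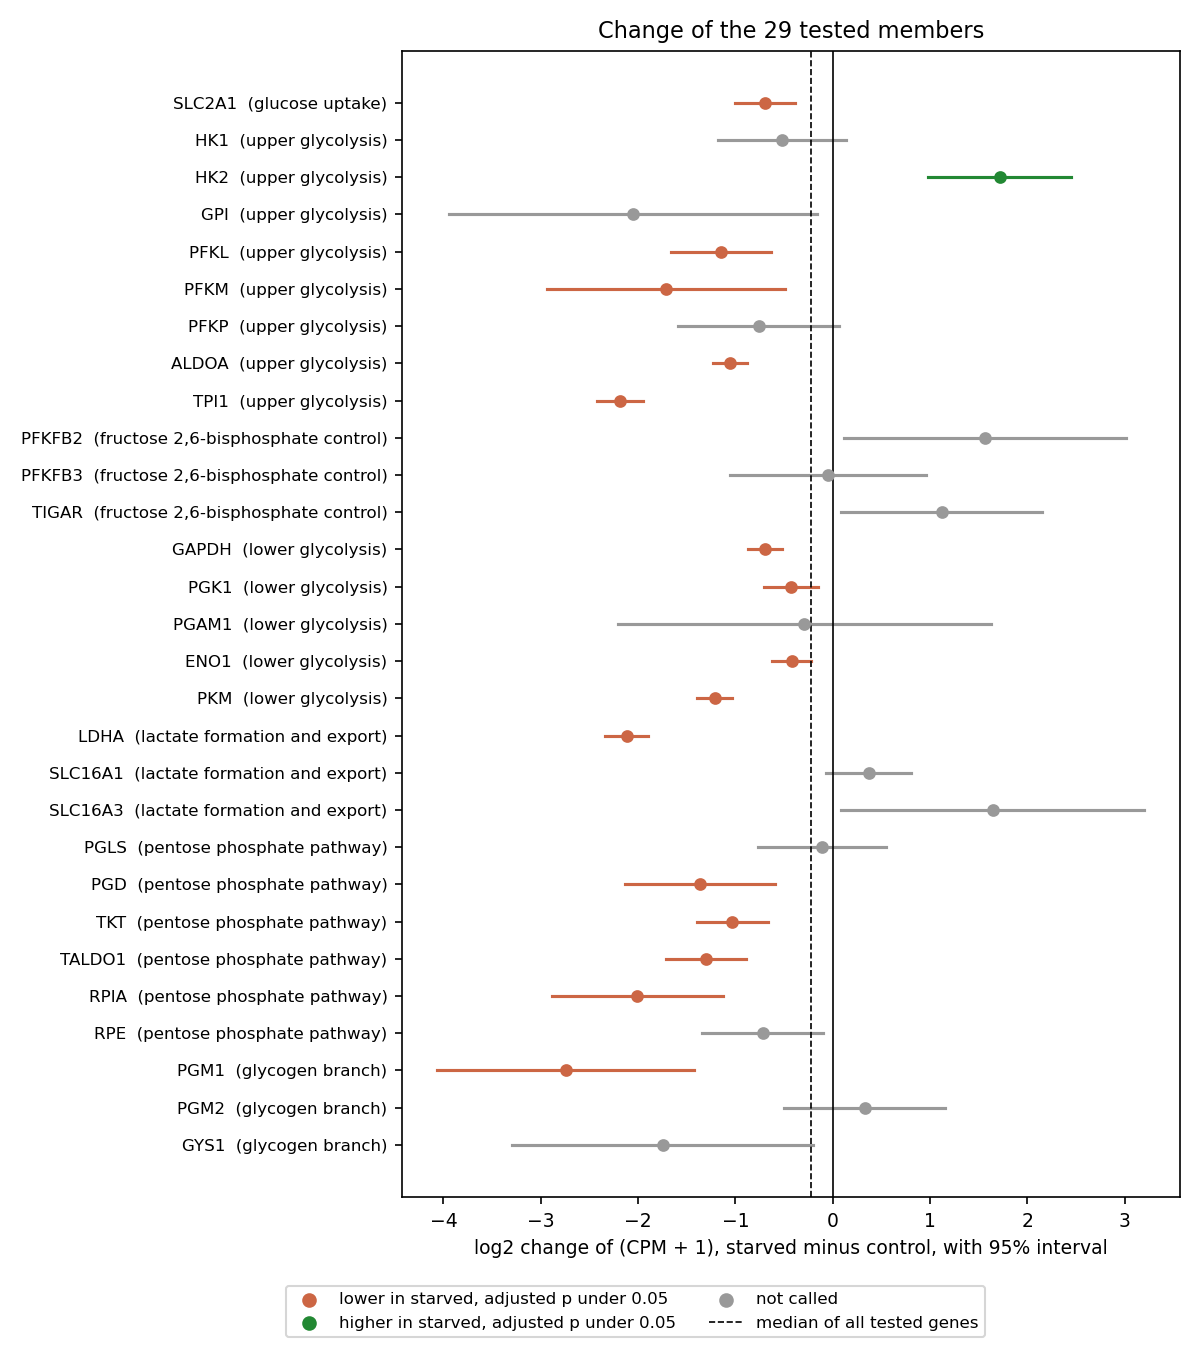
Log2 change of (CPM + 1), starved minus control, with its 95% interval for the 29 tested members, ordered by role; the solid line is 0, the dashed line the median of all tested genes (-0.22), and colour gives the call. The 15 lower calls lie between -2.74 (PGM1) and -0.42 (ENO1), and HK2 at 1.72 is the only higher call.

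**Figure D2:**
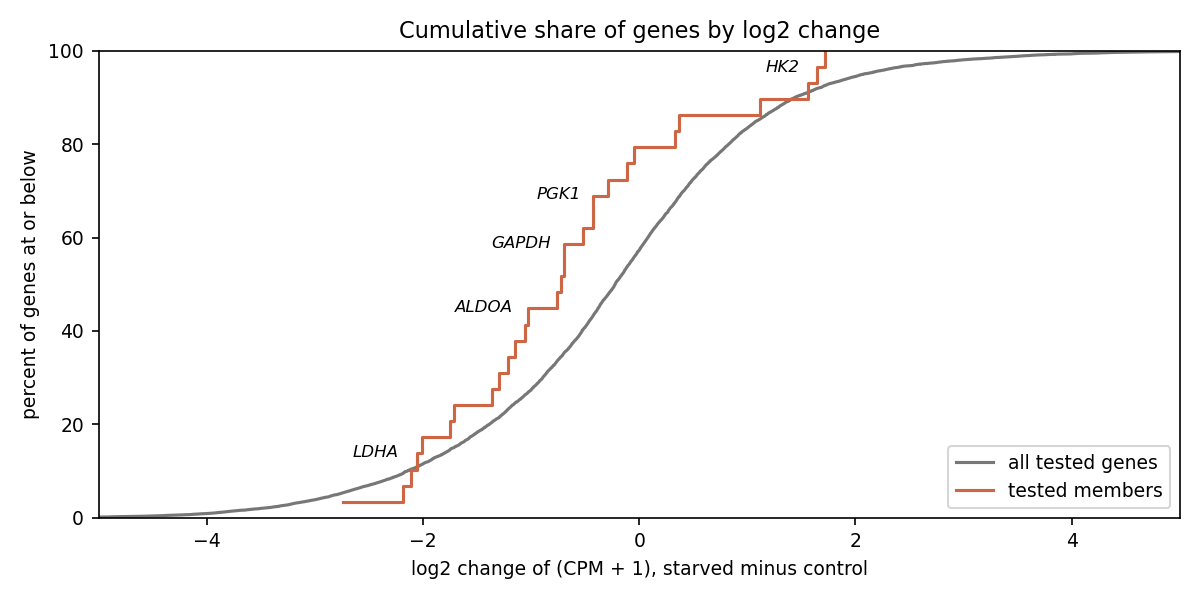
Percent of genes (vertical axis) at or below each log2 change (horizontal axis) for all 11202 tested genes and for the 29 tested members. The members' median is -0.72 and that of all genes -0.22; LDHA, ALDOA, GAPDH, PGK1 and HK2 are marked along the members' line.

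The libraries held 141763 to 474619 counts in control and 164008 to 593248 in starved cells, so that 1 count was worth 1.69 to 7.05 CPM. Keratin genes of simple epithelium were counted in every library, and the summed level of the 9 epithelial markers ranged from 13927 to 14999 CPM in control and from 2695 to 2901 CPM in starved libraries; MUC1 had 1 count in all. Of the 5 acinar markers all were at 0 counts. Of the other marker lists, COL3A1 and DCN (fibroblast) and CDH5 (endothelium) were at 0 in all libraries, PTPRC (leukocyte) had 3 counts in all, and the sums ranged for fibroblast markers from 84.6 to 157.5 CPM in control and 21.2 to 36.6 CPM in starved libraries, almost all LUM, and for leukocyte markers from 96.9 to 141.1 and from 74.4 to 122.1 CPM, mostly CD68 and LYZ, of which CD68 rose from 43.6 ± 9.02 to 81.8 ± 19.4 CPM and LYZ fell from 76.4 ± 18.1 to 8.62 ± 3.08 CPM. The endothelial sum reached 4.97 CPM in control and 36.6 CPM in starved libraries. The part of these differences in the results on glycolysis was not tested. In bulk libraries fewer cells holding a transcript and less of it per cell cannot be told apart.

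The promoters of LDHA, which fell, of HK2, which rose, and of TPI1, which also fell more than 4-fold, show the shared letters next to the values that follow. Each runs from 250 bases before to 50 bases after an annotated start, from RefSeq on GRCh38.p14, plus strand, and capitals mark ACGTG or its complement on either strand. LDHA lies at chr11:18394313-18394612, HK2 at chr2:74834920-74835219 and TPI1 at chr12:6867855-6868154; each gene has 2 annotated starts, and the one holding the letters was taken for LDHA and TPI1 and the one with CACGTG for HK2, after the letters were seen.
LDHA: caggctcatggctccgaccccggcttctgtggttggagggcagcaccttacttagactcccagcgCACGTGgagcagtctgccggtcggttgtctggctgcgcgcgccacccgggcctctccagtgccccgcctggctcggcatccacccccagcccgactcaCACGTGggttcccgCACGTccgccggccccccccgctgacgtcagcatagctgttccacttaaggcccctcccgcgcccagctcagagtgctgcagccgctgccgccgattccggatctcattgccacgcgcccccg
HK2: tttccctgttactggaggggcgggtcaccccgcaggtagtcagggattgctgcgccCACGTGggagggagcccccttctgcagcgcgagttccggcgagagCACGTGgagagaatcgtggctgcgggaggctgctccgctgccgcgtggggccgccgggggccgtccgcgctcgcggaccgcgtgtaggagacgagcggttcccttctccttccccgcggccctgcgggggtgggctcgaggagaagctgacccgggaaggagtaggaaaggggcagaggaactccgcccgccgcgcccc
TPI1: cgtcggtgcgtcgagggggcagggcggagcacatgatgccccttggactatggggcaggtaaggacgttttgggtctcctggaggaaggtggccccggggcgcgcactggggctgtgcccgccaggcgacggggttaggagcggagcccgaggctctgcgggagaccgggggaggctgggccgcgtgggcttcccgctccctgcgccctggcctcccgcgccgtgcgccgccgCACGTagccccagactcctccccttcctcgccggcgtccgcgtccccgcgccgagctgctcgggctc
The LDHA window holds CACGTG at -185 and -87 (first base, counted from the start) and 1 further ACGTG at -73. The HK2 window holds CACGTG at -194 and -149. The TPI1 window holds 1 ACGTG, at -17, and no CACGTG. As these windows were picked for their letters, that they hold them is not a result. Of the members called lower, PKM, ENO1, SLC2A1, TKT, TALDO1, PFKL and RPIA hold no ACGTG in any window. Over all 58 windows of the 31 members in the table, 21 windows (36.2%) hold ACGTG and 7 (12.1%) hold CACGTG on either strand, against 21.4% and 7.26% of all 35116 windows of this length. Every CACGTG counts as 2 overlapping ACGTG. TGATGNAA, a letter pattern of C/EBP-ATF sites, stands in 2 windows of the members, both of HK1 (3.45%, against 3.62% of all windows). These matches describe the sequence and are not shown to be bound.

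Glucose uptake was represented by a single gene. SLC2A1 (ENSG00000117394.19) encodes GLUT1, the main basal glucose carrier of proliferating cells. Its control libraries held 212, 228, 201, 177 and 207 CPM and its starved libraries 125, 149, 126, 140.2 and 95.5 CPM. All starved libraries lay below all control libraries. It fell 1.61-fold (limma: log2 change -0.70, SE 0.15, adjusted p = 0.000741). SLC2A3, the high-affinity carrier GLUT3, was never counted in any of the 10 libraries, and a count of 0 allows up to 3 counts per group, which equal 1.85 CPM (control) or 2.20 CPM (starved); floors and ratio intervals cover counting error only.

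The hexokinases, which phosphorylate glucose and so trap it in the cell, parted. HK2 (ENSG00000159399.9), an isoform that is induced in many tumours, held 14.1, 14.7, 22.4, 9.84 and 17.7 CPM in control and 52.3, 34.7, 46.5, 67.1 and 69.0 CPM in starved libraries. Every starved library exceeded every control library. It rose from 15.8 ± 4.64 to 53.9 ± 14.4 CPM (limma: log2 change 1.72, SE 0.35, adjusted p = 0.000495), on 27 and 72 counts in all. HK1, the housekeeping isoform, averaged 53.7 ± 15.1 CPM in control against 38.3 ± 14.2 CPM in starved libraries and was not called (log2 change -0.52, 95% interval -1.18 to 0.14). The log2 ratio of HK2 to HK1 moved by 2.23 (SE 0.54) from -1.71 ± 0.82 to 0.53 ± 0.89, with no overlap between the groups. The exact 2-sided permutation test gave p = 0.00794, the smallest possible for 5 against 5 libraries, and 0.0357 adjusted over the 9 pairs compared. Without control replicate 1 or 2 or starved replicate 3 or 4 the adjusted p was 0.0714, in a range of 0.0198 to 0.161, while the difference itself was 1.91 to 2.24 in those 4 fits.

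GPI, which turns glucose phosphate into fructose phosphate, summed to 14 counts in control and to 2 counts in starved libraries. Its control libraries held 21.2, 6.32, 7.46, 0 and 12.6 CPM and its starved libraries 1.69, 0, 4.65, 0 and 0 CPM. The groups overlapped at 0 and GPI was not called (limma adjusted p = 0.0734); the ratio of pooled levels, starved to control, was 0.170 with an exact 95% interval of 0.0187 to 0.739. It was called without control replicate 4 (adjusted p = 0.0143), without starved replicate 3 (0.0460), with edgeR (0.0386) and at a pseudocount of 5 (0.0401), in a range of 0.0143 to 0.195.

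Phosphofructokinase, the committed step of glycolysis, is built from liver, muscle and platelet type subunits. PFKL (liver type) held 70.5, 73.7, 79.5, 68.9 and 83.4 CPM in control and 25.3, 44.6, 37.2, 36.6 and 26.5 CPM in starved libraries. The groups did not overlap, and PFKL fell 2.21-fold (limma: log2 change -1.15, SE 0.25, adjusted p = 0.000733). PFKM (muscle type) held 7.05, 29.5, 37.3, 54.1 and 22.7 CPM in control and 3.37, 4.96, 13.9, 6.10 and 10.6 CPM in starved libraries. Control replicate 1 lay inside the starved range, and PFKM fell with log2 change -1.72 (SE 0.59, limma adjusted p = 0.0227). That call was lost without control replicate 2, 3 or 4 (adjusted p = 0.0534, 0.0651 and 0.0773) and without starved replicate 1 (0.0537), in a range of 0.000183 to 0.0773. PFKP (platelet type) averaged 32.2 ± 3.31 CPM in control against 20.4 ± 10.5 CPM in starved libraries and was not called (log2 change -0.76, 95% interval -1.59 to 0.06); without starved replicate 4, at 36.6 CPM its highest starved library, the adjusted p was 0.0474, in a range of 0.0474 to 0.313. No difference in change between the 3 subunits passed the exact permutation test, with adjusted p of 0.235 for PFKP against PFKL, 0.235 for PFKP against PFKM and 0.384 for PFKM against PFKL. The differences of log2 change were 0.39 (SE 0.25), 0.95 (SE 0.65) and -0.57 (SE 0.58), errors too wide to show that the subunits changed alike.

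ALDOA and TPI1 act in the cleavage of fructose bisphosphate and the interconversion of its products. ALDOA (ENSG00000149925.16), the main aldolase, held 1545, 1614, 1456, 1668 and 1484 CPM in control and 722, 699, 702, 829.2 and 791 CPM in starved libraries. The gap between the groups was wider than the spread within either, and ALDOA fell 2.08-fold (limma: log2 change -1.05, SE 0.08, adjusted p = 1.8e-09). TPI1 (ENSG00000111669.14), triose phosphate isomerase, held 896, 986, 949, 915 and 920.0 CPM in control and 244, 233, 195, 201 and 159 CPM in starved libraries. Its starved libraries reached at most 244 CPM where the lowest control library held 896 CPM. TPI1 fell 4.52-fold (limma: log2 change -2.18, SE 0.11, adjusted p = 1.32e-12). ALDOC, the brain aldolase, had 3 and 2 counts over the groups and was not tested, with a ratio of 0.792 and an exact 95% interval of 0.0661 to 6.91.

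Fructose 2,6-bisphosphate activates phosphofructokinase; PFKFB enzymes make and degrade it, and TIGAR degrades it. None of the 3 tested genes of this step was called by limma, which called 43.3% of all tested genes. Of the 3 genes 2 had an unadjusted p under 0.05, both toward higher levels. Higher calls numbered 2 by edgeR and 1 by DESeq2, beside 2483 and 2025 of all 11202 tested genes. The exceptions were PFKFB2 and TIGAR. PFKFB2 held 0, 14.7, 24.9, 9.84 and 22.7 CPM in control and 30.3, 44.6, 37.2, 24.4 and 15.9 CPM in starved libraries. Its groups overlapped (limma: log2 change 1.56, SE 0.70, adjusted p = 0.0754); it was called without control replicate 3 (adjusted p = 0.0473), with edgeR (0.0410), without a filter (0.0166), with quantile normalization (0.0442) and at a pseudocount of 5 (0.0370), in a range of 0.0166 to 0.294. TIGAR held 28.2, 18.96, 4.97, 34.4 and 12.6 CPM in control and 27.0, 29.8, 41.8, 97.6 and 21.2 CPM in starved libraries. Starved replicate 4 stood above the other starved libraries, and TIGAR was not called (limma: log2 change 1.12, SE 0.50, adjusted p = 0.0739). Without that library the log2 change was 0.77 (adjusted p = 0.228), and without control replicate 3 it was 0.73 (0.211). Without control replicate 4 or starved replicate 5 TIGAR was called (0.0408 and 0.0480), as with edgeR (0.00245), DESeq2 (0.0231), quantile normalization (0.0349), a pseudocount of 5 (0.0433) and no filter (0.0461), in a range of 0.00245 to 0.228. PFKFB3, the kinase-rich isoform, held 18.1 ± 7.95 in control and 17.3 ± 6.82 CPM in starved libraries (log2 change -0.05, 95% interval -1.06 to 0.96). PFKFB4 had 2 and 1 counts and was not tested. The log2 ratio of PFKFB3 to PFKFB2 moved by -1.61 (SE 1.1; exact permutation p = 0.143, adjusted 0.235).

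Lower glycolysis recovers ATP and NADH from the triose phosphates. GAPDH (ENSG00000111640.14), often used as a reference gene, held 1312, 1429, 1516, 1309 and 1458 CPM in control and 893, 908, 799.6, 921 and 801.5 CPM in starved libraries. Its groups did not overlap. GAPDH fell 1.62-fold (limma: log2 change -0.70, SE 0.08, adjusted p = 8.27e-07), and the fall was called in each of the 21 alternatives. PGK1, phosphoglycerate kinase, held 296, 320.3, 338, 482 and 336 CPM in control and 244, 268, 260.3, 305 and 228 CPM in starved libraries. Starved replicate 4 lay above control replicate 1, and control replicate 4 far above the other controls. PGK1 fell with log2 change -0.43 (SE 0.13, limma adjusted p = 0.0139), and without control replicate 4 the call was lost (log2 change -0.31, adjusted p = 0.0507, in a range of 0.00566 to 0.0507). PGAM1, phosphoglycerate mutase, had 18 and 12 counts and was not called, with 11.1 ± 9.33 and 7.36 ± 5.58 CPM (log2 change -0.29, 95% interval -2.21 to 1.62); 5 pseudogene entries of PGAM1 in the table held 1 and 10 counts, so its level is uncertain.

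ENO1 (ENSG00000074800.13), enolase, held 903, 857, 838, 994 and 915 CPM in control and 722, 694, 609, 768 and 578.5 CPM in starved libraries. The groups did not overlap, and ENO1 fell 1.34-fold (limma: log2 change -0.42, SE 0.10, adjusted p = 0.0013). PKM (ENSG00000067225.17), pyruvate kinase, which closes glycolysis, held 1100.4, 1165, 1280.0, 1284 and 1208 CPM in control and 573, 496, 507, 500.0 and 525 CPM in starved libraries. PKM fell 2.32-fold with no overlap (limma: log2 change -1.21, SE 0.09, adjusted p = 3.11e-10); the 3' reads do not separate its splice forms. ENO2, the neuronal enolase, had 4 and 1 counts and was not tested. Pseudogene entries of ALDOA, TPI1, GAPDH, ENO1, PKM and LDHA held at most 14 counts per group for each gene.

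LDHA (ENSG00000134333.13), the lactate dehydrogenase subunit of glycolytic tissue whose promoter is printed above, held 1242, 1412, 1509, 1565 and 1314 CPM in control and 359, 347, 256, 347 and 318.5 CPM in starved libraries. Its highest starved library lay far below its lowest control library. LDHA fell 4.33-fold (limma: log2 change -2.11, SE 0.11, adjusted p = 5.91e-13). LDHB, the subunit of oxidative tissue, had 0 counts in control and 2 in starved libraries, both in starved replicate 1, so LDHA was the subunit counted in these cells. The lactate carriers SLC16A1 (MCT1) and SLC16A3 (MCT4) were not called. SLC16A1 held 71.4 ± 15.3 in control and 91.8 ± 16.9 CPM in starved libraries (log2 change 0.37, 95% interval -0.07 to 0.81). SLC16A3 held 0, 4.21, 7.46, 4.92 and 7.58 CPM in control and 6.74, 9.92, 32.5, 6.10 and 31.8 CPM in starved libraries. Starved replicates 3 and 5 stood above the rest, and the other starved libraries lay within or close to the control range (limma: log2 change 1.64, SE 0.75, adjusted p = 0.0824). It was called with edgeR (adjusted p = 0.0344) and at a pseudocount of 5 (0.0468), in a range of 0.0344 to 0.327. The ratio of SLC16A3 to SLC16A1 moved by 1.27 on the log2 scale (SE 0.80; exact permutation p = 0.183, adjusted 0.235).

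**Figure D3:**
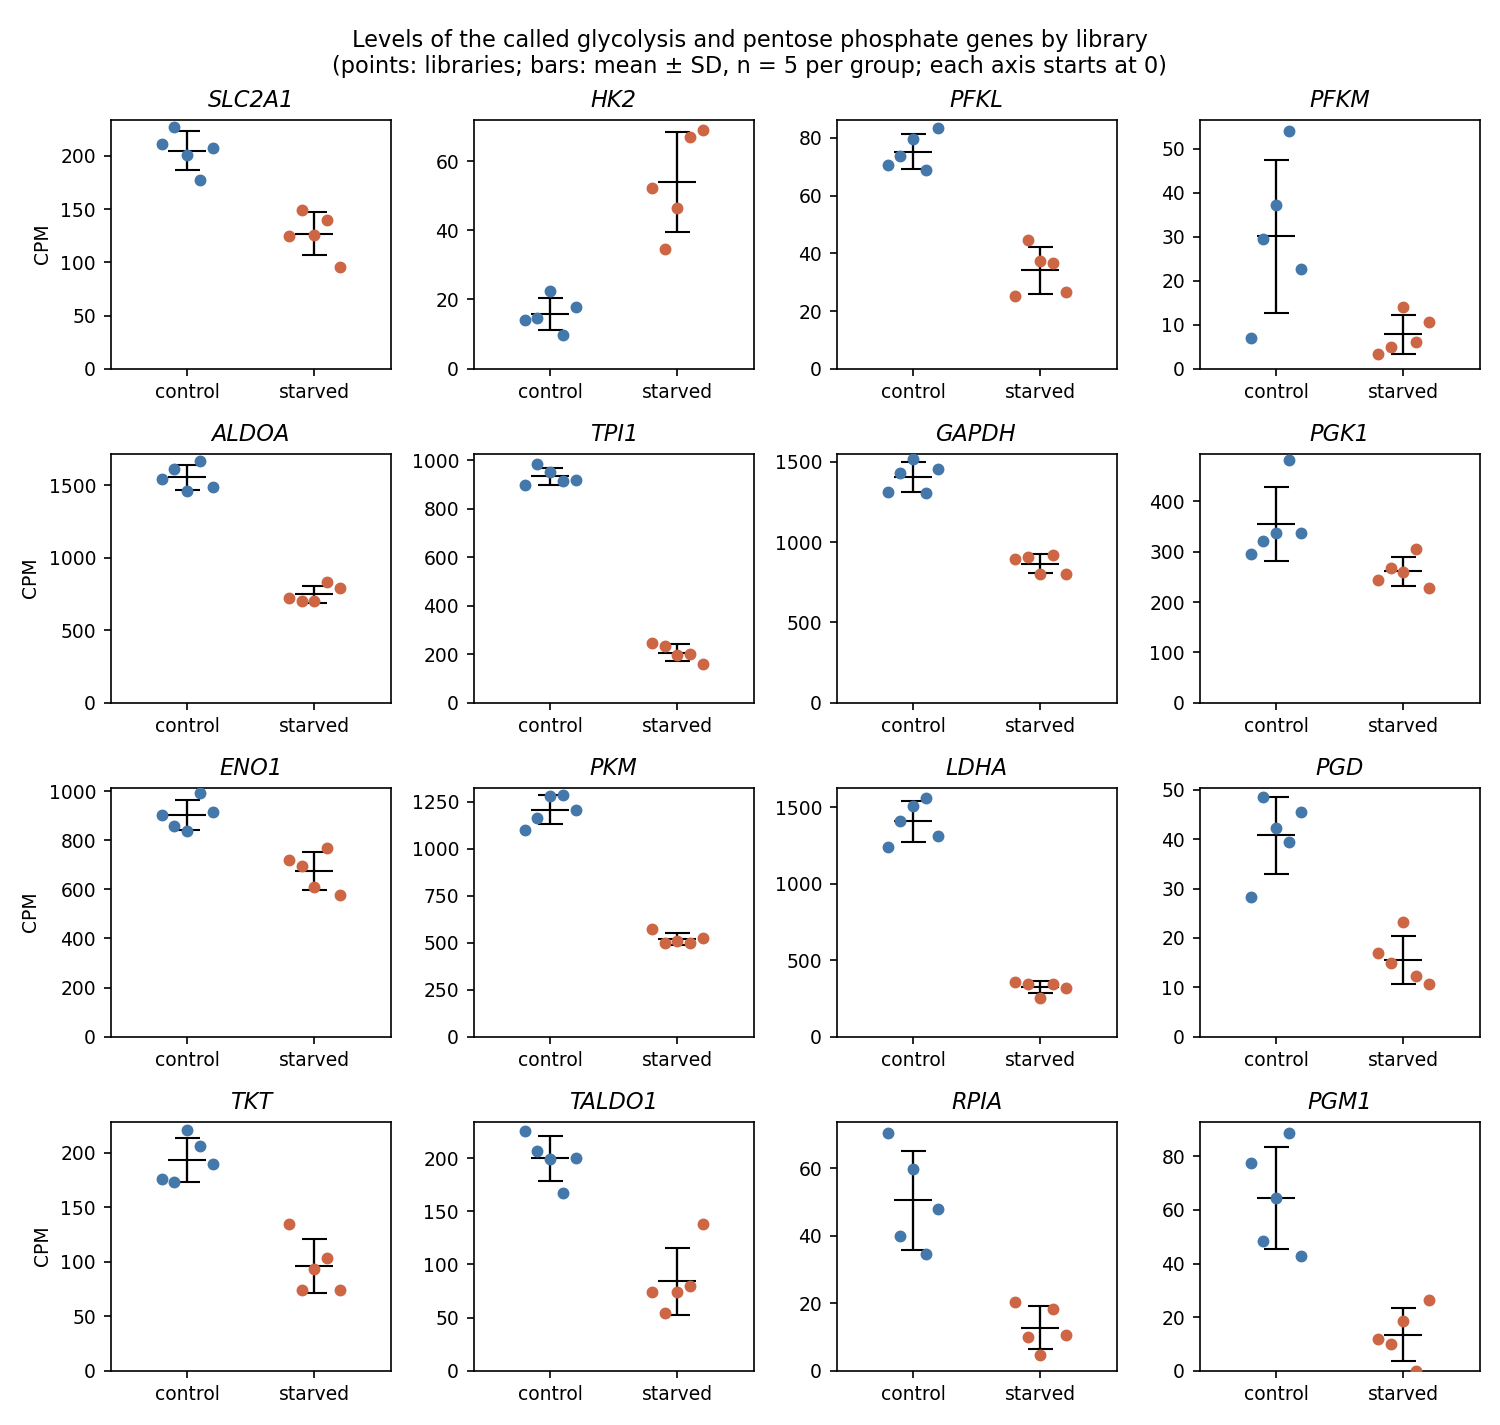
CPM of the 16 called members in every library (points; vertical axes in CPM, each starting at 0), with mean ± SD bars for 5 control and 5 starved libraries. LDHA and TPI1 show the widest gaps, PFKM and PGK1 overlap between the groups, and HK2 is the panel in which the starved libraries are higher.

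In the oxidative arm of the pentose phosphate pathway PGD fell and PGLS did not pass the test. PGD, which makes NADPH from phosphogluconate, held 28.2, 48.5, 42.3, 39.4 and 45.5 CPM in control and 16.9, 14.9, 23.2, 12.2 and 10.6 CPM in starved libraries. The groups did not overlap, and PGD fell 2.62-fold (limma: log2 change -1.36, SE 0.37, adjusted p = 0.00538). PGLS, the lactonase before it, held 37.9 ± 8.37 and 36.0 ± 14.0 CPM (log2 change -0.11, 95% interval -0.77 to 0.54). Starved replicate 1 held 60.7 CPM of PGLS and the other starved libraries 26.5 to 32.5 CPM.

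In the non-oxidative arm 3 of 4 genes fell and 0 rose by limma, where 26.1% of all tested genes fell and 17.2% rose. With an unadjusted p under 0.05 also 0 of the 6 tested pentose phosphate members rose. By edgeR and DESeq2 0 of the 6 were called higher, beside 2483 and 2025 of all 11202 tested genes. TKT, transketolase, held 176, 173, 221, 207 and 189.6 CPM in control and 135, 74.4, 93.0, 104 and 74.3 CPM in starved libraries, and TKT fell 2.01-fold (limma: log2 change -1.03, SE 0.17, adjusted p = 6.23e-05). TALDO1, transaldolase, held 226, 206.5, 199, 167 and 199.7 CPM in control and 74.2, 54.6, 74.4, 79.3 and 138 CPM in starved libraries, and TALDO1 fell 2.37-fold (limma: log2 change -1.30, SE 0.20, adjusted p = 1.84e-05). Both enzymes, which shuttle carbon between pentoses and glycolysis, were lower in all starved than in all control libraries. Their ratio did not differ detectably between groups (difference -0.27, SE 0.32; exact permutation p = 0.421, adjusted 0.421); without starved replicate 5, the highest starved library of TALDO1, the difference was -0.54 (adjusted p = 0.0476, in a range of 0.0476 to 0.839).

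RPIA, the isomerase that yields ribose phosphate, held 70.5, 40.0, 59.6, 34.4 and 48.0 CPM in control and 20.2, 9.92, 4.65, 18.3 and 10.6 CPM in starved libraries. RPIA fell 3.97-fold with no overlap (limma: log2 change -2.01, SE 0.42, adjusted p = 0.000619). RPE, the epimerase beside it, averaged 67.5 ± 29.01 CPM in control against 39.1 ± 10.9 CPM in starved libraries and was not called (limma: log2 change -0.72, SE 0.30, adjusted p = 0.0565). Without control replicate 5 or starved replicate 3 or 4 RPE was called (0.0297, 0.0435 and 0.0439), as at a pseudocount of 5 (0.0419) and with a filter at 20 CPM (0.0447), in a range of 0.0297 to 0.216. The log2 ratio of RPIA to RPE moved by -1.29 (SE 0.50; exact permutation p = 0.0159, adjusted 0.0476), and that call was lost in 12 of 18 alternatives, among them 8 of the 10 that leave out 1 library, with adjusted p from 0.0265 to 0.201 over all of them.

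PGM1, the phosphoglucomutase between glycolysis and glycogen, held 77.6, 48.5, 64.6, 88.6 and 43.0 CPM in control and 11.8, 9.92, 18.6, 0 and 26.5 CPM in starved libraries. PGM1 fell 4.82-fold with no overlap (limma: log2 change -2.74, SE 0.64, adjusted p = 0.00147); without starved replicate 4, which had 0 counts, the log2 change was -1.93 (adjusted p = 0.000225, in a range of 6.32e-09 to 0.013). In GENCODE release 29 its exons overlap ITGB3BP on the opposite strand, which held 62.2 CPM in control and 15.8 CPM in starved libraries on average, so without knowing how strand was used the reads of PGM1 cannot be fully assigned. PGM2 held 21.3 ± 7.61 and 26.2 ± 6.80 CPM and was not called (log2 change 0.33, 95% interval -0.50 to 1.16). The log2 ratio of PGM2 to PGM1 moved by 3.07 (SE 0.82) from -1.58 ± 0.42 to 1.49 ± 1.78, with no overlap (exact permutation p = 0.00794, adjusted 0.0357). Leaving out control replicate 1 or 2 or starved replicate 3 or 4 gave an adjusted p of 0.0714 (range 0.0198 to 0.161), and without starved replicate 4 the difference was 2.28. GYS1, glycogen synthase, held 14.1, 25.3, 7.46, 39.4 and 17.7 CPM in control and 3.37, 19.8, 9.30, 0 and 5.31 CPM in starved libraries and was not called (limma: log2 change -1.75, SE 0.74, adjusted p = 0.062). Without control replicate 3 or starved replicate 2 GYS1 was called (0.0460 and 0.0229), as with edgeR (0.0259) and at a pseudocount of 5 (0.0353), in a range of 0.0229 to 0.161.

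**Figure D4:**
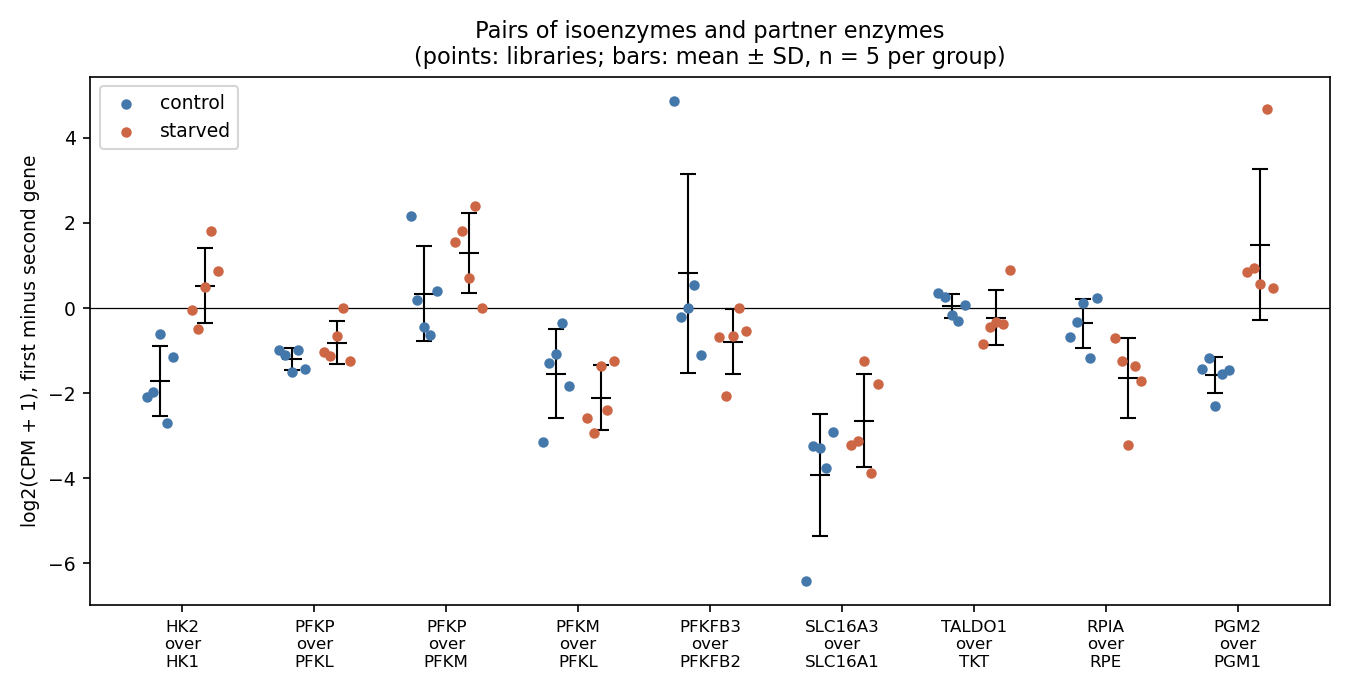
Difference of log2(CPM + 1) between the genes of each of the 9 compared pairs (vertical axis), by library (points) with mean ± SD for 5 control and 5 starved libraries. HK2 over HK1 moves from -1.71 to 0.53 and PGM2 over PGM1 from -1.58 to 1.49; levels of different genes are not corrected for transcript length, so only the shift between groups is read.

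Of the other overlapping genes with counts, YOD1, on the opposite strand of PFKFB2, went from 18.3 CPM in control to 51.7 CPM in starved libraries, so that the reads of PFKFB2 are uncertain. SENP1 (PFKM) held 37.5 and 29.8 CPM, KANSL1L (RPE) 17.6 and 12.0 CPM, CSNK1D (SLC16A3) 45.1 and 53.02 CPM, ATP7A (PGK1, same strand) 8.12 and 22.1 CPM, and SPSB2 (TPI1) 17.7 and 14.4 CPM. Replicates of the abundant members spread little more than counting error allows. The coefficient of variation of ALDOA was 5.68% in control libraries where counting alone gives 4.98%, and that of PKM 6.47% where counting gives 5.59%. LDHA spread more, 9.47% against 5.17%, and PGK1 most among these, 20.7% against 10.4%, with its high control replicate 4.

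The rest of the pathway, 97 further genes of which 90 were in the table and 51 were tested, gave 17 lower and 8 higher calls (33.3% and 15.7%, beside 26.1% and 17.2% of all genes). In 7 of the 51, among them SLC2A6, PCK2 and PPP1R3D, the group with the lower level averaged under 5 CPM, so that they were tested only through the other group. Of 7 tested genes of the glucose and lactate carrier families and their chaperones 4 fell and 0 rose by limma and also at an unadjusted p under 0.05. By edgeR 3 were called lower and by DESeq2 2, and both called 0 higher. Of all 11202 tested genes edgeR called 2869 lower and 2483 higher, and DESeq2 2399 lower and 2025 higher. Not all genes of this list carry glucose or lactate. They included SLC16A5, a monocarboxylate carrier, from 91.5 ± 35.8 to 14.4 ± 16.965 CPM, SLC2A6 from 20.4 ± 9.87 to 3.63 ± 3.35 CPM and SLC2A13, a proton-coupled inositol carrier, from 35.9 ± 8.86 to 17.001 ± 8.71 CPM. The last of the 4 was BSG, the chaperone of MCT1 and MCT4, named after its values were seen (limma adjusted p = 0.0497). Of 8 other glycolysis and gluconeogenesis enzymes 3 fell and 2 rose, where DESeq2 called 3 lower and 1 higher. FBP1, the gluconeogenic fructose bisphosphatase, stood at 67.0 ± 4.59 CPM in control and fell 12.1-fold to 5.55 ± 0.858 CPM ( limma: log2 change -3.38, SE 0.39, adjusted p = 4.91e-07). PGP, which removes toxic side products of glycolysis, fell from 198 ± 22.6 to 19.4 ± 15.3 CPM, whereas HKDC1, a hexokinase relative, rose from 137 ± 21.4 to 201.5 ± 16.2 CPM (limma adjusted p = 0.0036). The other calls, picked with their values known, were PCK2, the mitochondrial carboxykinase, which rose from 4.77 ± 4.54 to 16.1 ± 7.80 CPM, and SLC37A4, the glucose phosphate carrier of the endoplasmic reticulum, which fell from 31.4 ± 23.4 to 6.91 ± 6.62 CPM.

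Of 8 tested further pentose phosphate enzymes 4 fell and 0 rose by limma, where 26.1% of all tested genes fell and 17.2% rose. Toward higher levels went 1 at an unadjusted p under 0.05, 2 by edgeR and 1 by DESeq2. PRPS2, which turns ribose phosphate into the nucleotide precursor PRPP, fell from 62.2 ± 15.8 to 17.9 ± 4.64 CPM, and DERA, a deoxyribose phosphate aldolase, from 98.0 ± 23.7 to 40.3 ± 9.96 CPM. PRPSAP1, named after its values were seen, also fell. Of 11 tested glycogen genes 5 fell (45.5%, against 26.1% of all tested genes) and 0 rose (17.2% of all) by limma. At an unadjusted p under 0.05, 6 of them were lower and 0 higher. The share of all genes at that threshold is not given, so these 2 counts cannot be read alone. Of the glycogen genes edgeR called 5 lower and 1 higher, and DESeq2 3 lower and 0 higher. Of all 11202 tested genes edgeR called 2869 lower and 2483 higher, and DESeq2 2399 lower and 2025 higher. PYGB, the brain type glycogen phosphorylase, fell from 243 ± 43.4 to 123 ± 45.2 CPM and UGP2, which makes UDP-glucose, from 128 ± 21.8 to 79.0 ± 17.04 CPM. PPP1R3D and PHKA1, named after their values were seen, also fell.

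Among 17 tested known regulators 6 rose (35.3%, against 17.2% of all tested genes) and 1 fell (5.88%, against 26.1%), in a list chosen with results of these data known. Of the 17, 2 reached the mean of 5 CPM only through the group in which they were higher. Among the 6 that rose this holds for ARRDC4, named after its values were seen, with 0.927 ± 1.28 CPM in control and 32.4 ± 10.0 CPM in starved libraries. TXNIP, which restrains glucose uptake, rose from 64.9 ± 15.7 to 1072 ± 97.1 CPM (limma: log2 change 4.05, SE 0.15, adjusted p = 2.43e-15), MYC from 113 ± 32.3 to 313 ± 6.17 CPM and NFE2L2, a regulator of the oxidative pentose phosphate arm, from 194 ± 52.7 to 518 ± 78.0 CPM. HIF1A stayed uncalled at 9.25 ± 4.58 CPM (control) and 8.64 ± 4.98 CPM (starved; limma adjusted p = 0.686); it was picked with its values known, and its protein was not measured here. AKT1, likewise named afterwards, was the 1 that fell, from 74.0 ± 25.5 to 32.0 ± 9.83 CPM.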

How the data were processed

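RNA of 10 AsPC-1 libraries was sequenced with a 3' transcriptome kit, per the labels' protocols. The submitters' processing notes name the build hg19; how reads were aligned, counted, annotated, and whether strand and molecular identifiers were used, is not stated in the labels. The deposited values are CPM: the authors scaled each library to 1000000 over 36498 genes. All values above 0 (100%) were whole multiples of their column's smallest value within a relative tolerance of 1e-06, which gave back whole counts (141763 to 593248 per library).

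Groups were compared on log2(CPM + 1) with limma 3.58.1 in R 4.3.3 (trended prior, 2-sided), for 11202 genes averaging 5 CPM or more; p-values were adjusted by Benjamini-Hochberg at 0.05. Folds are of mean CPM. For low genes the log2 change on this scale can be smaller or larger than the fold of means implies. GPI had a log2 change of -2.05 at a 7.51-fold fall, and PGM1 one of -2.74 at a 4.82-fold fall. Gene pairs were compared by exact permutation of the difference in log2(CPM + 1), adjusted over the 9 of 15 listed pairs with both genes tested. Alternatives were pseudocounts of 0.5 and 5, no filter, a 20 CPM filter, quantile, TMM or median-of-ratios scaling, count models on the whole counts (DESeq2 1.42.0, edgeR 4.0.16 with its quasi-likelihood test), a replicate block, leaving out each library, and leaving out control replicates 1 and 2 together. Their library indices, 76 and 88, stand apart from those of the other controls (5, 17 and 29) and beside those of starved replicates 4 and 5 (77 and 89). The labels name no batch. Methods were tested on simulated data.

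All members are reported; of each other list the 3 called genes with the smallest p are named, except some that are not reported here. Members and lists were chosen with earlier results of these data known.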

Additional observations from a re-analysis of the deposited data

Results flagged for a closer look

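In 3 of the 58 groups of 5 libraries examined (29 tested members in 2 groups) 1 library stood apart from the other 4 by Dixon's test, where chance gives about 2.9. TIGAR in starved replicate 4 held 97.6 CPM, where the other starved libraries held 21.2 to 41.8 CPM. PGK1 in control replicate 4 held 482 CPM, where the other control libraries held 296 to 338 CPM. PGLS in starved replicate 1 held 60.7 CPM, where the other starved libraries held 26.5 to 32.5 CPM.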

How the results depend on the processing

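Of the 29 tested members 20 stayed on the same side of the threshold in each alternative that gave them a value, and 9 did not; 0 called members changed direction, while PFKFB3, PGAM1 and PGLS, not called, took both signs. Of the 21 alternatives GPI had a value in 17, and PFKM, PFKFB3, PGAM1, SLC16A3 and GYS1 in 20 each. The number of members called lower was 15, and 14 to 18 over the alternatives. The number called higher was 1; it was 4 at a pseudocount of 5 and with edgeR, 3 without a filter and with quantile normalization, 2 with DESeq2 and with the replicate block, and 1 to 2 when 1 library was left out. The cause was not tested. All genes called were 4850, and 3856 to 5352 over the alternatives. Of the 9 gene pairs 3 were called, 0 to 3 when 1 library was left out and 0 without control replicates 1 and 2 together, which leaves fewer libraries to permute; a paired permutation of 5 pairs cannot reach the threshold and was not run. Same-numbered libraries did not deviate together (correlations -0.0158 to 0.0227). Counting error in libraries this shallow could hide a pairing, so the check cannot decide whether the numbers pair the samples. With the replicate block 4801 genes, 15 members lower and 2 higher were called, TIGAR (limma adjusted p = 0.0494) beside HK2. A count was worth up to 7.05 CPM, so members under about 20 CPM are measured by few counts per library.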
